A study of Mus musculus with 6 samples.

Results

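The genes described here encode proteins that carry or organise the spread of the electrical impulse through heart muscle. They are the sodium channel genes Scn4a, Scn10a, Scn2b, Scn3b and Scn4b, the connexin genes Gja1 and Gja5, and the junctional scaffold gene Tjp1. They were chosen by name, and all 8 were found among 17891 genes listed in at least 1 sample, and in each of the 6 samples. RNA was sequenced from the myocardium of 3 NS-DADm and 3 wild type (WT) mouse hearts, on a C57BL/6 background and at an age of 6 weeks. In NS-DADm mice, whole-body knock-in mutations alter the deacetylase activating domains (DADs) of NCOR and SMRT, corepressors of nuclear receptors that bind and activate the histone deacetylase HDAC3 through this domain. WT mice carry neither mutation. Whether the samples of a group came from different mice is not in the labels, and the p-values therefore cover only the spread among these samples, which may be technical.

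Each heartbeat spreads in steps that alternate within and between cells. A voltage-gated sodium channel, built from a pore-forming alpha subunit and smaller beta subunits, opens and gives the upstroke of the action potential. The current then passes to the next cell through gap junctions, which are channels formed by connexins and are gathered, in ventricular muscle, at the intercalated disc. Connexin 43, the product of Gja1, is the main connexin of working myocardium, while connexin 40, the product of Gja5, is typical of atrial muscle, of the fast conduction system and of arterial endothelium.

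Levels are given as FPKM, fragments scaled to the length of the gene and to the mapped fragments of the library, as the authors deposited them, so levels of different genes are compared per length. Total expected counts were 12262523 to 12758311 in NS-DADm samples and 10183792 to 11205221 in WT samples, so all 3 NS-DADm libraries were deeper. Tests are edgeR's quasi-likelihood test on rounded expected counts over 13130 genes, with Benjamini-Hochberg adjustment over all of them and a threshold of 0.05, and fold changes are NS-DADm over WT. Cardiomyocyte genes dominated every library, with summed FPKM of Myh6, Actc1, Tnnt2, Tnni3, Ryr2 and Pln of 34320 to 37810 in NS-DADm and 34210 to 36530 in WT samples. Atrial transcripts varied widely inside both groups. The atrial light chain gene Myl7 stood at 446.3, 84.3 and 804.5 FPKM in NS-DADm 1, 2 and 3, against 50.9, 9.77 and 795.5 FPKM in WT 1, 2 and 3, so that NS-DADm 1, NS-DADm 3 and WT 3 were rich in atrial RNA and the remaining samples were not. Ncor1, which encodes NCOR, had 24.3 ± 1.01 FPKM in NS-DADm and 22.9 ± 1.16 FPKM in WT samples (SD, n = 3 each), and Hdac3 had 29.8 ± 0.804 FPKM in NS-DADm and 29.8 ± 2.02 FPKM in WT samples. Neither passed the test (adjusted p = 0.432 and 0.884, edgeR), and since a knock-in alters the protein and need not alter the RNA level, this does not check the labels.

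Of the 8 genes, Scn4b rose, Gja1 fell and 6 did not pass the test. Over all tested genes 3.2% were called, 1.79% higher and 1.41% lower in NS-DADm, and 18.1% had an unadjusted p under 0.05, the share against which such counts in the gene lists are to be read. Gja1 was the most abundant by far, Scn4b and Tjp1 lay next, followed by Scn4a and Gja5, and Scn3b, Scn10a and Scn2b were near the limit of detection. The median log2 fold change of the 8 genes was -0.17, beside -0.0031 over all tested genes, and 6 of the 8 fold changes were negative.

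**Figure D1:**
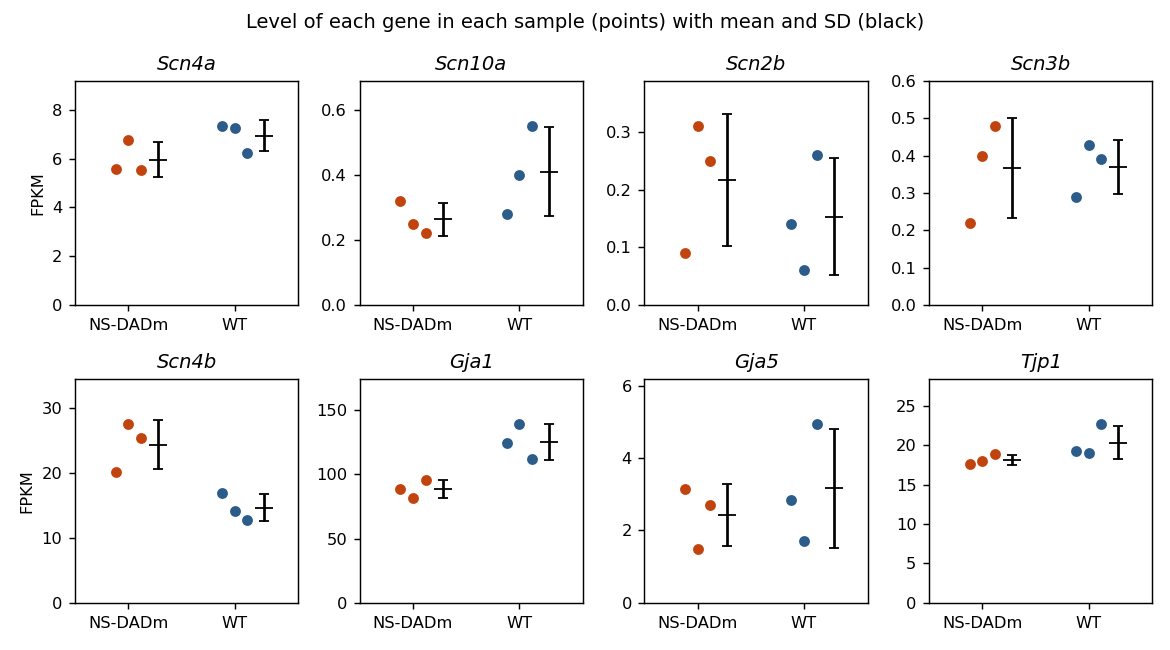
FPKM (y axes, linear, from 0) of each of the 8 genes in the 3 NS-DADm samples and the 3 WT samples; points are samples, and black bars are mean and SD. The groups do not overlap for Scn4b, Gja1 and Tjp1, and they overlap for the other 5 genes.

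Scn4b encodes the beta-4 subunit, a single-pass membrane protein with an immunoglobulin-like extracellular domain that alters the gating of the channel's alpha subunit. Its level was 20.1, 27.6 and 25.3 FPKM in NS-DADm 1, 2 and 3, against 16.9, 14.2 and 12.8 FPKM in WT 1, 2 and 3. The lowest NS-DADm sample was above the highest WT sample, as it was in 8.94% of all tested genes. The means were 24.3 ± 3.83 FPKM in NS-DADm and 14.6 ± 2.09 FPKM in WT samples (SD, n = 3 each), and the log2 fold change was 0.76 (SE 0.13, 95% interval 0.47 to 1.05, adjusted p = 0.0149, edgeR). The estimates rested on 3812 expected counts over the NS-DADm samples and 1963 over the WT samples. Scn4b lost its call without WT 2 (log2 fold change 0.74, adjusted p = 0.0822), while the adjusted p of all its alternatives ran from 2.24e-09 to 0.59.

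The other two beta subunit genes were scarce. Scn2b, whose product is linked to the alpha subunit by a disulfide bond as that of Scn4b is, had 0.09, 0.31 and 0.25 FPKM in NS-DADm samples and 0.14, 0.06 and 0.26 FPKM in WT samples, from 37 and 23 expected counts in all. Scn3b, whose product binds without that bond, had 0.22, 0.40 and 0.48 FPKM in NS-DADm samples and 0.29, 0.43 and 0.39 FPKM in WT samples. Both overlapped between the groups, and the 95% intervals of the log2 fold change were wide, from -0.74 to 1.73 for Scn2b (adjusted p = 0.70, edgeR) and from -0.79 to 0.78 for Scn3b (adjusted p = 0.998). Changes within those intervals could therefore not be told from no change with these counts and 3 samples per group. Within the FPKM of these 3 genes the share of Scn4b was 97.7% ± 0.672 in NS-DADm and 96.4% ± 1.19 in WT samples (SD, n = 3 each), which overlapped (exact permutation test, two-sided, p = 0.30, where 3 against 3 samples cannot go below 0.10). Scn4b was thus nearly all of this pool in both genotypes.

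Of the alpha subunit genes, Scn4a encodes the channel of skeletal muscle and Scn10a a channel best known from sensory neurons. Scn4a had 5.57, 6.78 and 5.52 FPKM in NS-DADm samples, against 7.34, 7.27 and 6.21 FPKM in WT samples. NS-DADm 2 lay above WT 3, so the groups overlapped, and the log2 fold change of -0.20 (SE 0.11, 95% interval -0.44 to 0.05) did not pass (adjusted p = 0.388, edgeR). Skeletal muscle markers were close to 0 in all samples, with a summed FPKM of 10 genes of 2.94 to 6.13 in NS-DADm and 2.80 to 6.76 in WT samples, and the fast myosin heavy chain gene Myh4 at no more than 0.10 FPKM. Scn10a had 25, 20 and 17 expected counts in NS-DADm samples and 19, 26 and 39 in WT samples, which is 0.32, 0.25 and 0.22 FPKM against 0.28, 0.40 and 0.55 FPKM. The highest value was that of WT 3, and NS-DADm 1 lay above WT 1. Its log2 fold change was -0.63 (SE 0.31, 95% interval -1.32 to 0.07, adjusted p = 0.328, edgeR). The summed FPKM of 11 neuronal markers was 10.2 to 15.0 in NS-DADm and 14.2 to 16.9 in WT samples. Of its 4 tested genes Dbh, the enzyme that makes noradrenaline, fell (log2 fold change -1.77, SE 0.41, adjusted p = 0.047, edgeR), and without any 1 of the samples Dbh was not called (adjusted p = 0.0721 to 0.174). Their part in the level of Scn10a was not tested.

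Gja1 fell. Its level was 88.8, 81.6 and 95.8 FPKM in NS-DADm 1, 2 and 3, against 124.0, 139.5 and 111.7 FPKM in WT 1, 2 and 3. The highest NS-DADm sample was below the lowest WT sample, as it was in 14.5% of all tested genes, and Gja1 lay above 94.9% of tested genes in mean level. The means were 88.7 ± 7.12 FPKM in NS-DADm and 125.1 ± 14.0 FPKM in WT samples (SD, n = 3 each), and the log2 fold change was -0.47 (SE 0.09, 95% interval -0.67 to -0.27, adjusted p = 0.0229, edgeR). In bulk tissue, fewer cells of a type and less RNA per cell cannot be told apart. The call of Gja1 ended in 4 of the 6 fits that left out 1 sample, those without NS-DADm 1, NS-DADm 2, WT 1 and WT 2 (adjusted p = 0.0693 to 0.0947), with log2 fold changes of -0.56 to -0.38 over all 6, and its adjusted p ran from 2.55e-07 to 0.59 over all alternatives. Among the 15 connexin genes listed, Gja1 held 74.7%, 75.4% and 77.3% of the summed FPKM in NS-DADm samples, and 77.3%, 80.8% and 75.4% in WT samples.

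The sequence before the transcription start of Gja1 is shown because Gja1 is the most abundant of these genes and the one that fell. It is the 250 bases at chr10:56377050-56377299 of GRCm38.p6, plus strand, from RefSeq, whose promoter table held 7 of the 8 genes. Capitals mark the only match to any of 4 motifs, searched on both strands.
Gja1: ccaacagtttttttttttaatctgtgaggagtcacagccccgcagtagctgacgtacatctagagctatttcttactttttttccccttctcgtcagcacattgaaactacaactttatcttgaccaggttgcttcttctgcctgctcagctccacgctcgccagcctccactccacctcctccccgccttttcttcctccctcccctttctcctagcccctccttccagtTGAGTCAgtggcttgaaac
The match is to the AP-1 motif TGANTCA, which begins at base -19 counted from the start and which was chosen after this sequence was seen. In windows of 300 bases, from 250 before to 50 after the start, 7.81% of the 32851 windows of the table held that motif. The half-site AGGTCA of nuclear receptors, the receptor family that NCOR and SMRT bind, was in 16.3% of windows and in those of 0 of the 7 genes, and the T-box motif AGGTGT was in 13.7% and likewise in 0. The NKX2-5 motif AAGTG was in 46.4% of windows, among them those of Scn10a and Gja5. The Scn4b window held no match to these 4 motifs, which says only that those letters are not in that window.

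Gja5 was far less abundant than Gja1 and varied within each group with atrial RNA. It stood at 3.14, 1.48 and 2.69 FPKM in NS-DADm 1, 2 and 3, against 2.84, 1.70 and 4.95 FPKM in WT 1, 2 and 3. In each group the samples rich in atrial transcripts were above those that were not, and the groups overlapped. Its log2 fold change was -0.36 (SE 0.35, 95% interval -1.15 to 0.42, adjusted p = 0.651, edgeR). With the mean log2(CPM + 1) of the atrial markers Sln, Myl7, Myl4, Mybphl, Bmp10 and Dkk3 as a covariate (CPM is a gene's count scaled to the library total), the log2 fold change was -0.79 (SE 0.18) and Gja5 passed the test (adjusted p = 0.0318, edgeR), while without WT 3 it was 0.11 (adjusted p = 0.891). The result for Gja5 therefore differed between these fits, and its adjusted p ran from 0.0318 to 0.909 over all alternatives. WT 3 was the only atrial-rich WT sample, and the part of atrial RNA in this difference was not tested. The ratio of Gja5 to Gja1 FPKM was 0.0272 ± 0.00865 in NS-DADm and 0.0265 ± 0.0164 in WT samples (SD, n = 3 each), with a difference of 0.00072 that was well within the spread (exact permutation test, two-sided, p = 1.0). Exons of Gja5 overlap those of Gpr89 on the opposite strand in GENCODE M21, and no source used here says that counting used strand. Gpr89 stood at 7.32, 7.39 and 7.82 FPKM in NS-DADm and 7.03, 7.37 and 6.87 FPKM in WT samples, without the spread of Gja5.

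Arterial endothelium also holds Gja5. The summed FPKM of 6 such markers was 29.0 to 31.6 in NS-DADm and 29.8 to 34.8 in WT samples. These sums overlapped, and 3 of the 6 fold changes were negative and 3 positive, with a median log2 fold change of 0.02. Of the 6 markers 2, Efnb2 and Dll4, were lower in every NS-DADm than in every WT sample, as were 14.5% of all tested genes. Neither Efnb2 nor Dll4 passed (adjusted p = 0.0685 and 0.0604, edgeR). Hey1, Sox17 and Bmx had positive fold changes, with overlap between the groups. By edgeR 0 of the 6 were called, 2 had an unadjusted p under 0.05, and DESeq2 and limma called 0. The connexin Gja4, which is typical of this endothelium, stood at 7.53, 6.64 and 7.10 FPKM in NS-DADm and 9.39, 7.25 and 7.81 FPKM in WT samples, and did not pass (adjusted p = 0.508, edgeR).

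**Figure D2:**
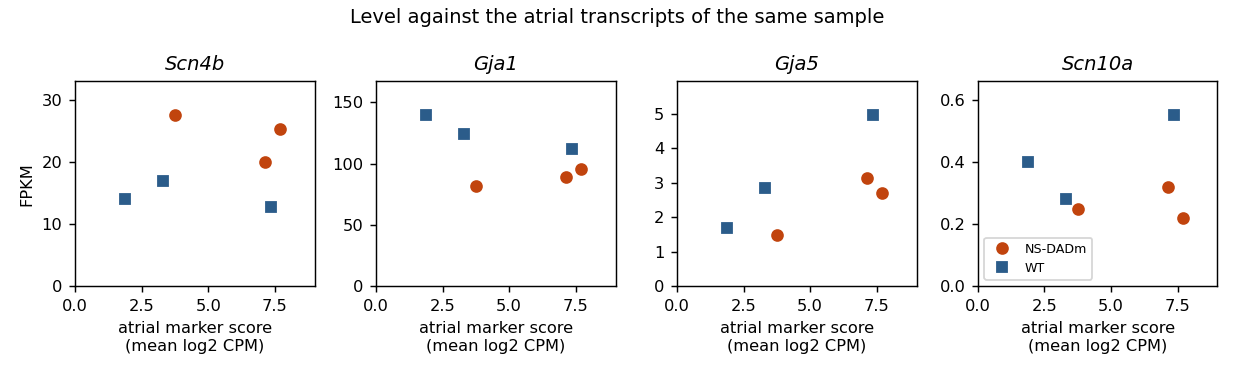
FPKM (y axes, linear, from 0) of Scn4b, Gja1, Gja5 and Scn10a against the mean log2(CPM + 1) of 6 atrial markers (x axes) in the same sample; circles are NS-DADm and squares are WT samples. Within each group Gja5 was higher in the samples with high atrial scores, NS-DADm 1, NS-DADm 3 and WT 3, whereas Scn4b was higher in NS-DADm than in WT samples at both low and high scores.

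Scn4b and Gja1 kept their directions when samples of similar atrial content were compared, a comparison chosen after the data were seen. Between NS-DADm 2 and WT 1 and 2, which were low in atrial transcripts, the log2 fold change was 0.87 for Scn4b and -0.65 for Gja1. Between NS-DADm 1 and 3 and WT 3, which were high in them, it was 0.85 for Scn4b and -0.25 for Gja1. Each of these fits had a group of 1 sample, assumed to vary like the others, and in the second 0 of all genes were called. The size for Scn4b was nearly the same at both levels, and that for Gja1 was smaller among atrial-rich samples, a difference that was not tested. With the atrial score as a covariate both were called, Scn4b at 0.88 (SE 0.12, adjusted p = 0.00236) and Gja1 at -0.42 (SE 0.09, adjusted p = 0.0342, edgeR). For Gja5 the values were -0.58 at low and -0.74 at high atrial content, so it was lower in NS-DADm within both sets, and it was called in neither (adjusted p = 0.255 and 0.59). Scn10a was at -0.42 and -1.0, also with no call (adjusted p = 0.758 and 0.592).

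**Figure D3:**
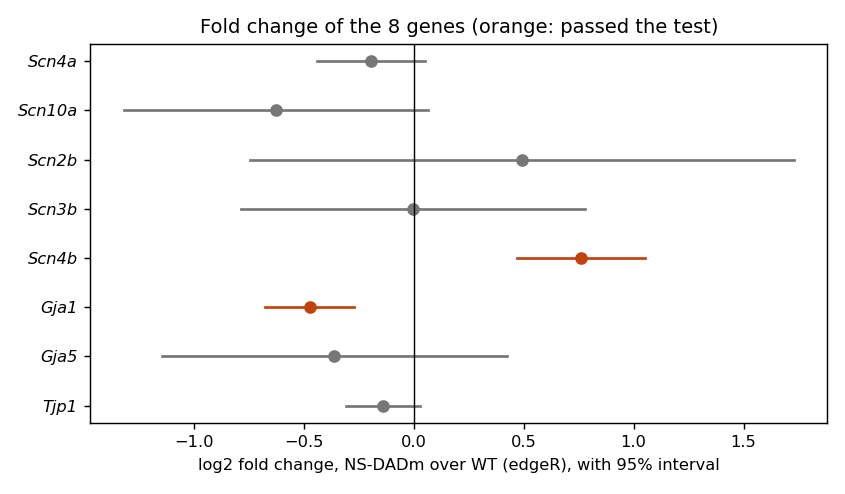
Log2 fold change, NS-DADm over WT (x axis), of the 8 genes, from edgeR; points are estimates and lines are 95% intervals, orange where the gene passed the test. The intervals of Scn4b and Gja1 lie away from 0 on opposite sides, and those of Scn2b, Scn3b, Scn10a and Gja5 are the widest.

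Tjp1 encodes ZO-1, a scaffold that binds the tail of connexin 43 at the edge of gap junctions and also serves tight junctions of other cells. Its level was 17.6, 18.0 and 18.8 FPKM in NS-DADm samples, against 19.3, 19.0 and 22.8 FPKM in WT samples. The groups did not overlap, which was so for 23.4% of all tested genes, but the gap between NS-DADm 3 and WT 2 was small. The log2 fold change of -0.14 (SE 0.08, 95% interval -0.31 to 0.03) did not pass (adjusted p = 0.361, edgeR). The order of Scn4b and Tjp1 by level differed between the genotypes, a comparison added after the values were seen. Scn4b stood above Tjp1 in all 3 NS-DADm samples, with FPKM ratios of 1.14, 1.53 and 1.35, and below it in all 3 WT samples, with ratios of 0.878, 0.744 and 0.563. The remaining order was the same in both genotypes, with Gja1 highest and Scn4a and Gja5 next below this pair. The ranges of Scn3b, Scn10a and Scn2b overlapped one another in NS-DADm samples, so no order is given among them there, while in WT samples Scn2b lay below both.

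Transcript tables showed which RefSeq models carried these counts. Scn4b, Gja1, Scn4a and Scn2b each had 1 model listed, NM_001013390, NM_010288, NM_133199 and NM_001014761, while the other 4 genes had more than 1. Most Tjp1 counts went to NM_001163574, at 14.1, 14.2 and 16.1 FPKM in NS-DADm and 17.1, 17.1 and 17.9 FPKM in WT samples. The groups did not overlap for this model, and its log2 fold change was -0.21 (SE 0.06, unadjusted p = 0.014, adjusted p = 0.301 over 17498 transcripts, edgeR). The second model, NM_009386, had 3.45, 3.79 and 2.79 FPKM in NS-DADm samples and 2.16, 1.88 and 4.87 FPKM in WT samples, with overlap between the groups. The authors' estimator divides reads between such models, so their split is an estimate. Of all transcripts tested 0.0972% were called, and of 9 tested models of these genes 0 were, with 3 at an unadjusted p under 0.05, those of Scn4b and Gja1 included, beside 11.2% of all transcripts. Their log2 fold changes in the transcript tables were 0.76 (SE 0.16, adjusted p = 0.189) and -0.47 (SE 0.10, adjusted p = 0.191).

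Among genes of proteins that anchor or modify cardiac sodium channels, 18 were tested, of which 1 rose, 0 fell and 17 did not pass, with a median log2 fold change of -0.02 beside -0.0031 over all tested genes. The calmodulin genes Calm2 and Calm3 were the most abundant of the list, at 102.3 to 120.6 and 81.0 to 92.5 FPKM in NS-DADm and 87.2 to 104.2 and 92.0 to 98.4 FPKM in WT samples, and neither passed (adjusted p = 0.25 and 0.451). Fgf12, a channel-binding protein of the fibroblast growth factor family, followed the atrial-rich samples, with 3.42, 0.44 and 5.99 FPKM in NS-DADm and 0.51, 0.19 and 5.20 FPKM in WT samples. The choice of Fgf12 was made with its values in view.

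Among further sodium channel subunit genes, 5 were tested and 0 called by edgeR, with 3 at an unadjusted p under 0.05 and 0 called by DESeq2 or limma. One of them, Scn7a, which encodes a sodium-sensing channel and was chosen after its values were seen, had 5.87, 5.37 and 6.14 FPKM in NS-DADm and 6.68, 6.51 and 7.35 FPKM in WT samples. These groups did not overlap, and the log2 fold change of -0.22 (SE 0.08) did not pass (adjusted p = 0.175, edgeR).

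Further connexins and pannexins, of which 7 were tested, had 1 that fell and 0 that rose, and 6 of the 7 fold changes were negative. Their summed FPKM was 26.1 to 28.5 in NS-DADm and 33.1 to 34.7 in WT samples, which did not overlap. The gene that fell was Gjc1, which encodes connexin 45, a connexin of the nodes and the conduction system, at 8.67, 7.95 and 8.06 FPKM in NS-DADm and 11.8, 10.9 and 11.4 FPKM in WT samples (log2 fold change -0.44, SE 0.08, adjusted p = 0.0228, edgeR). Every NS-DADm sample lay below every WT sample, but Gjc1 missed the threshold with DESeq2 (adjusted p = 0.0516) and in 5 of the 6 fits that left out 1 sample (0.053 to 0.0949). Gja3, whose connexin is best known from the eye lens, was among the more abundant, at 8.19, 7.95 and 8.11 FPKM in NS-DADm and 10.2, 11.1 and 9.28 FPKM in WT samples. Its groups did not overlap either, but it did not pass (log2 fold change -0.31, SE 0.09, adjusted p = 0.0975, edgeR). Of 13 tested genes of connexin trafficking and turnover, among them the ubiquitin ligase gene Nedd4 and the kinase gene Mapk3, 0 were called by edgeR, DESeq2 or limma and 0 had an unadjusted p under 0.05. Nedd4 stood at 129.1 to 137.5 FPKM in NS-DADm and 135.1 to 143.6 FPKM in WT samples.

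At the intercalated disc, 22 tested genes gave 1 rise, 1 fall and 20 that did not pass, with a median log2 fold change of -0.0058. Fold changes were negative for 11 and positive for 11. An unadjusted p under 0.05 was found for 9 of the 22, beside 18.1% of all tested genes. DESeq2 called 3 and limma 2. Nrap, an actin-anchoring protein of the disc, had 176.6, 190.2 and 195.7 FPKM in NS-DADm and 150.7, 155.2 and 153.8 FPKM in WT samples (log2 fold change 0.31, SE 0.06, adjusted p = 0.0289, edgeR). Mllt4, which encodes afadin, an adaptor between adhesion receptors and actin, had 9.24, 9.12 and 9.76 FPKM in NS-DADm and 12.4, 13.3 and 12.7 FPKM in WT samples (log2 fold change -0.43, SE 0.06, adjusted p = 0.00799, edgeR). Nrap kept its call only when the sample left out was NS-DADm 1 (adjusted p = 0.0378, otherwise 0.0552 to 0.109), and Mllt4 was not called without WT 2 (adjusted p = 0.0568). Des, the intermediate filament gene desmin and the most abundant of the list, stood at 994.4, 935.6 and 996.9 FPKM in NS-DADm and 855.6, 898.3 and 790.9 FPKM in WT samples (adjusted p = 0.113). Cdh2, the cadherin of the disc, had 74.6, 82.4 and 75.1 FPKM in NS-DADm and 98.5, 93.9 and 84.7 FPKM in WT samples and did not pass (adjusted p = 0.150). The choice of Cdh2 was made with its values in view.

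Of 17 tested transcription factors known to control conduction genes, 0 were called by edgeR or limma and 1 by DESeq2, 6 had an unadjusted p under 0.05, and 11 fold changes were negative, with a median of -0.13. Hopx, a homeodomain cofactor of cardiac muscle, was the most abundant, at 159.3, 172.7 and 135.7 FPKM in NS-DADm and 203.6, 198.4 and 182.6 FPKM in WT samples (adjusted p = 0.116, edgeR). Nkx2-5, which acts with T-box factors at connexin genes, stood at 60.5, 53.1 and 59.8 FPKM in NS-DADm and 66.2, 58.5 and 58.9 FPKM in WT samples (adjusted p = 0.745). Tbx5, a regulator of Gja5, was highest in atrial-rich samples, with 13.8, 9.28 and 21.7 FPKM in NS-DADm and 10.1, 10.7 and 21.0 FPKM in WT samples (adjusted p = 0.887). The choice of Tbx5 was made with its values in view.

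Markers of the nodes and the His-Purkinje system, the specialised conducting tissue, were lower in part. Of 13 tested, 3 fell, 0 rose and 10 did not pass. Fold changes were negative for 9 and positive for 4, and 6 had an unadjusted p under 0.05. Among these 6, Tbx3 and Cacna1d were higher in NS-DADm (log2 fold change 0.435 and 0.82, adjusted p = 0.245 and 0.256, edgeR). The summed FPKM of the list was 71.1 to 77.4 in NS-DADm and 91.6 to 93.0 in WT samples. Kcne1, a potassium channel subunit, had 0.71, 0.23 and 0.40 FPKM in NS-DADm and 2.53, 2.07 and 2.31 FPKM in WT samples (log2 fold change -2.35, SE 0.31, adjusted p = 0.00444, edgeR). Cacna1g, a T-type calcium channel, had 1.6, 1.24 and 1.79 FPKM in NS-DADm and 2.47, 2.74 and 3.44 FPKM in WT samples (adjusted p = 0.0138), and Smoc2, a matrix protein also made by fibroblasts, fell too (log2 fold change -0.35, SE 0.08, adjusted p = 0.0436). Smoc2 made up most of the summed level and, of the fits that left out 1 sample, was called only in that without WT 3 (adjusted p = 0.0237, otherwise 0.0592 to 0.183). Cacna1g missed the threshold when NS-DADm 1 was left out (adjusted p = 0.0522), when WT 2 was (0.0568), and with limma (0.0546 and 0.0584). Cntn2, the Purkinje cell adhesion molecule, had 0.97, 0.33 and 0.84 FPKM in NS-DADm and 0.27, 0.31 and 1.65 FPKM in WT samples, high in the same atrial-rich samples as Gja5. The part of conducting tissue in the levels of Gja5 and Scn10a was not tested.

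Of the markers of other cell types that hold connexin 43 or ZO-1, those of fibroblasts and of endothelium overlapped between the groups in their summed level. Fibroblast markers had a summed FPKM of 445.8 to 544.6 in NS-DADm and 461.6 to 550.1 in WT samples, and endothelial markers 226.2 to 252.9 in NS-DADm and 228.0 to 253.9 in WT samples. Of single genes, Lum among the 5 fibroblast and Cdh5 among the 6 endothelial markers were lower in every NS-DADm than in every WT sample. The same held for 14.5% of all tested genes. Neither Lum nor Cdh5 passed (adjusted p = 0.132 and 0.25, edgeR). Fold changes were positive for 3 of the 5 fibroblast and 3 of the 6 endothelial markers. Col1a1 and Pecam1 were among these, with overlapping groups (log2 fold change 0.32 and 0.19, adjusted p = 0.127 and 0.329, edgeR). By edgeR and limma 0 fibroblast markers were called, and by DESeq2 1. Macrophage markers did not overlap, with 235.4 to 271.2 in NS-DADm and 179.8 to 185.3 in WT samples, and 4 of 6 rose, namely C1qa, C1qb, C1qc and Csf1r (adjusted p = 0.00405 to 0.0195, edgeR). Without WT 2 the calls of C1qb and Csf1r were lost (adjusted p = 0.0568 and 0.0961), which left 2 of 6, and that of Csf1r was also lost without NS-DADm 1, NS-DADm 2 or WT 1 (0.0556 to 0.0788). Cardiac macrophages can carry connexin 43, and their part in the level of Gja1 was not tested. The summed FPKM of 7 Schwann cell markers was 6.59 to 10.7 in NS-DADm and 10.9 to 12.2 in WT samples, with 0 of 6 tested called by edgeR, DESeq2 or limma and 2 at an unadjusted p under 0.05.

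The genes whose pattern over the 6 samples was nearest to that of Scn4b, among 11135 genes with a mean of at least 1 FPKM, were Aqp8, Nepn and Lpin3. Likeness was the root mean square difference of log2 CPM from each gene's own mean, at 0.0605, 0.107 and 0.114 for these genes. Of them Lpin3, a phosphatidate phosphatase of lipid synthesis, was called higher (log2 fold change 0.74, adjusted p = 0.0205), while the water channel gene Aqp8 and Nepn were near 1 FPKM and did not pass (adjusted p = 0.211 and 0.219, edgeR). Nearest to Gja1 were Grip2, a scaffold of glutamate receptors, Meox2, a homeobox factor of vessels, and Cenpf, a kinetochore protein, at 0.0447, 0.0597 and 0.0671. Meox2 stood at 7.11, 7.29 and 8.25 FPKM in NS-DADm and 11.1, 11.8 and 10.1 FPKM in WT samples. Nearest to Gja5 were Aif1l, Igfbp3 and Gpr182, at 0.147, 0.214 and 0.214, and Igfbp3, a carrier of insulin-like growth factors, was highest in WT 3 at 28.4 FPKM. With 6 samples such likeness is a description of these samples.

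Scn4b lies next to Scn2b among the tested genes on chromosome 9, in RefSeq's order on GRCm38.p6. The gene on its other side, Il10ra, the receptor of interleukin 10, had 1.73, 2.07 and 2.11 FPKM in NS-DADm and 1.19, 1.37 and 1.29 FPKM in WT samples. It too was higher in every NS-DADm sample, but missed the threshold (log2 fold change 0.65, SE 0.17, adjusted p = 0.0754, edgeR). The next gene beyond Scn2b, Ube4a, stood at 7.21, 6.91 and 7.64 FPKM in NS-DADm and 6.70, 7.98 and 7.54 FPKM in WT samples. On either side of Gja1 on chromosome 10, Msl3l2 and Hsf2, a heat shock factor, did not pass (log2 fold change 0.28 and -0.20, adjusted p = 0.705 and 0.293). These neighbours were taken by position, a choice made after the values of Scn4b and Gja1 were seen.

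**Figure D4:**
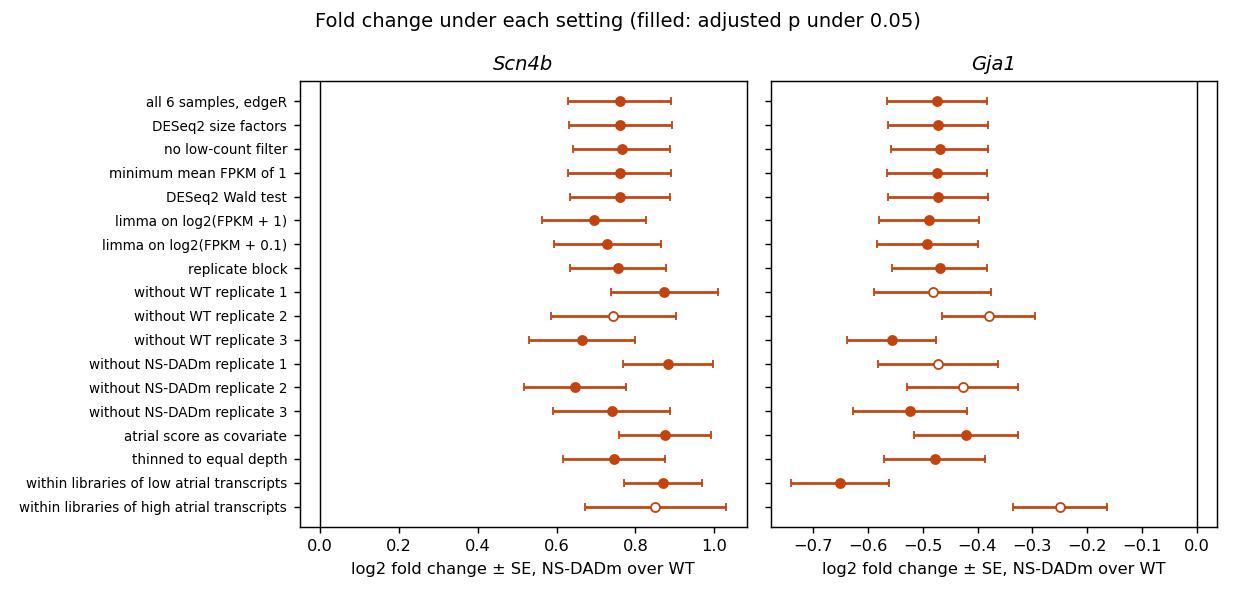
Log2 fold change, NS-DADm over WT, with its SE (x axes) of Scn4b and Gja1 under each setting (y axis, the main test at the top); filled points have an adjusted p under 0.05. Every value of Scn4b lies between 0.65 and 0.88 and every value of Gja1 between -0.65 and -0.25, and open points mark fits in which the gene was not called.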

How the data were processed

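Per the labels' protocols, total RNA of frozen myocardium was isolated by Trizol, and libraries were made with a Qiagen kit and BGI's standard procedure. The submitters' processing notes name HISAT, without a version; no source used here gives the estimator, genome build or annotation. The authors deposited, per the file headers, expected counts (estimated counts that need not be whole) and FPKM, per gene and per transcript for each sample. Genes below an FPKM of 0.01 are not listed and were taken as 0. The 1 row without a gene symbol, at most 3.2e-04% of counts, was left out. A count of 3 at 1 kilobase equals an FPKM of 0.235 to 0.295. Chi-squares per gene of 3.49 to 17.9 between samples showed no library deposited in duplicate.

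Counts were rounded, filtered with filterByExpr and scaled by TMM (edgeR 4.0.16, R 4.3.3; biological coefficient of variation 0.106). Standard errors come from the fold change and test statistic. DESeq2 1.42.0 and limma 3.58.1 were alternatives, and exact permutation tests used scipy 1.17.1. The test was checked on simulated counts. Members, gene lists and alternatives were chosen with earlier results of these data known. The text names all members, called genes of each list (up to 4), the 2 most abundant of a list and the 3 genes most like a called member or Gja5; any further gene named is said to be chosen after its values were seen, or is a marker given as context. Some list members are not reported here by name.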

Additional observations from a re-analysis of the deposited data

How the results depend on the processing

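The number of genes called was 420 in the main test, 272 and 267 with limma on log2(FPKM + 1) and log2(FPKM + 0.1), 895 with the replicate block, and 117 to 382 when 1 sample was left out. Within libraries of low and of high atrial transcripts it was 979 and 0. Of the 8 conduction genes 2 were called, against 0 to 2 without 1 sample and 0 within the atrial-rich libraries, and 3 with the atrial score as covariate. The direction of Gja5 reversed without WT 3 (0.11, in a range of -0.65 to 0.111 over samples left out), that of Scn2b within atrial-rich libraries (-0.56), and that of Hdac3 without WT 3 (-0.015, in a range of -0.015 to 0.082) and in libraries of low atrial transcripts (-0.034). The log2 fold change of Scn3b, -0.0043 in the main test, became positive with no low-count filter (0.001), the atrial covariate (0.027), within libraries of low atrial transcripts (0.189) and without WT 2, WT 3 or NS-DADm 1 (0.118, 0.027 and 0.262, in a range of -0.229 to 0.262). The causes were not tested. The difference in the Gja5 to Gja1 ratio, 0.00072, turned negative without NS-DADm 1, WT 1 or WT 2 (-0.00337, -0.00107 and -0.00642) and ran from -0.00642 to 0.00965 over samples left out. The share of Scn4b among beta subunits differed by 1.28 percentage points, and by 0.638 to 1.81 without 1 sample. Deviations of samples with the same replicate number in the labels were correlated at 0.03, 0.37 and 0.42. Between samples of different number the correlations ran from -0.43 to 0.17. Whether the numbers mark pairs cannot be told from these values. The replicate block left Scn4b at 0.755 (adjusted p = 0.00494, edgeR) and Gja1 at -0.469 (0.00939), and both were called. Member transcripts called stayed at 0 under each of the 9 alternatives run. Depth limits Scn2b, Scn3b and Scn10a, each below 40 counts in any sample.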
